A study of Mus musculus with 16 samples.

Results

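Lungs given a CAV1 target site blocker around a bleomycin injury were compared with lungs given the same bleomycin dose and a control blocker, on 6 arrays against 6 of the 16 arrays in the series. The members were taken by title, and all 20363 named genes that passed a filter on dim spots were tested, so the description covers genes and cells beyond the largest changes. All mice were C57BL/6, aged 9 to 12 weeks, and whole lung was the tissue on every array. Either blocker went into the trachea 4 and 2 days ahead of the injury and again 4 days after it. The CAV1 blocker was dosed at 5 mg/kg, the control dose was not stated, and bleomycin was given once at 1 unit/kg. The other 4 arrays held lungs given PBS in place of bleomycin, 2 with each blocker. The day of collection was not stated. Nothing in the labels says that the arrays of a group came from separate mice, so the tests below measure the spread between these arrays, and their number limits the precision.

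Bleomycin breaks DNA and kills alveolar cells, and the lung answers with an early wave of chemokines and recruited monocytes, followed by scarring as fibroblasts lay down collagen. Caveolin-1, made from Cav1, coats the small membrane pits called caveolae, is abundant in capillary endothelium and alveolar type 1 cells, and restrains signalling by the TGF-beta receptor. A target site blocker is an antisense oligonucleotide that pairs with a microRNA binding site in an mRNA, so that the microRNA cannot bind there while its other targets remain open to it. The microRNA known to bind Cav1 in lung fibroblasts is miR-199a-5p, which TGF-beta induces in injured lung.

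The sequence of that microRNA is shown because its seed defines the binding site on which the known Cav1 regulation rests; the labels do not say which site of Cav1 the blocker covers. RefSeq (GRCm38.p6) gave the same mature sequence at both mouse loci, chr1:162217844-162217866 on the plus strand (Mir199a-2, inside the Dnm3os transcript) and chr9:21496537-21496559 on the minus strand (Mir199a-1). It is 23 bases long, and capitals mark the seed, bases 2 to 8.
mmu-miR-199a-5p: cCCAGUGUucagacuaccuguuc

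Cav1 itself did not differ past the test between the blockers. Its deposited log2 signal was 10.47 on the lowest, 10.71 on the median and 10.98 on the highest control array, against 10.80, 10.86 and 11.39 under the CAV1 blocker. The groups overlapped, and the highest value came from CAV1 array 6. The means were 10.70 ± 0.18 (SD, n = 6) and 10.94 ± 0.22 (SD, n = 6), a difference of 0.24 on the log2 scale with a 95% interval from -0.02 to 0.51 (limma, adjusted p = 0.643). An exact two-sided permutation test over every assignment of the 12 arrays to groups of 6 gave p = 0.0519, where 0.00216 is the smallest this design allows. After PBS the difference was 0.09. A blocker acts on the mRNA's binding site, and protein was not measured here. Of 15 caveolin, cavin and caveolar partner genes none was called at its brightest spot, 12 lay above 0, and their median was 0.05. Among the other Cav2 spots, a dimmer one of mean signal 9.15 differed by 1.24 and the rest by 0.15 to 0.23. The cause of that disagreement was not tested. Dnm3os, the long non-coding RNA that carries miR-199a and miR-214, differed by -0.14 (adjusted p = 0.831). Dnm3, the gene from whose opposite strand Dnm3os is made, differed by 0.22 (adjusted p = 0.935), with 1 high value of 8.50 on CAV1 array 3.

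Across all genes, 327 differed between the blockers after bleomycin (limma, Benjamini-Hochberg adjusted p under 0.05), which is 1.61% of those tested. The CAV1 blocker arrays were higher for 243 genes (1.19%) and lower for 84 (0.413%). Every count of called list members below is to be read against these shares. The 6 arrays of each group did not overlap for 291 of the 327, against 2.32% of all genes tested. These were 223 rises and 68 falls, where 1.49% of all genes lay apart and higher and 0.83% apart and lower. Most differences were small: 22 rises and 7 falls reached 1 on the log2 scale, and the medians were 0.60 among rises and -0.58 among falls. The median over all genes was -0.01. The falls included Ccl2, Cxcl10, Il6, Mx1 and Ms4a7, and the rises included Ddx6, Hira and 5 histone H4 genes. Of the rises 74, and of the falls 25, belonged to 2 sets of functionally unrelated genes described at the end. Calls were lost as arrays were removed, and 225 of the 327 (181 rises and 44 falls) kept their call whichever of the 16 arrays was left out. Leaving out a PBS array cannot change the difference between the bleomycin groups, only its estimated spread. It gave 394 calls for either PBS control array and 289 for either PBS CAV1 array, so counts out of 16 fits include such repeats. The number of falls depended more on single arrays, at 49 without CAV1 array 2, 50 without control array 1 and 52 without control array 3.

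The same blockers were compared after PBS on 4 other arrays, with no array in common with the bleomycin comparison. Of the 243 rises, 241 were also higher under the CAV1 blocker after PBS, against 55.9% of all genes, and 207 showed at least 0.5 of their difference there. The 241 include a set of 74 genes that moved together, whose mean overlapped between the PBS groups. Of the 84 falls, 63 were also lower after PBS and 46 showed at least 0.5 of their difference. The medians after PBS were 0.55 for the rises and -0.26 for the falls. After PBS, 63 genes were called (0.309% of those tested), among them 52 of the rises and 4 of the falls. The PBS groups also lay apart in genes of other tissues: the mean of squamous genes was 9.20 and 10.11 with the control blocker and 6.95 and 6.99 with the CAV1 blocker, and that of skeletal muscle genes was 9.49 and 11.23 against 8.08 and 8.29. Their part in the differences after PBS was not tested. No gene was called for a difference between the blocker's effect after bleomycin and after PBS (limma interaction, 0 of 20363, with 1876 at an unadjusted p under 0.05).

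**Figure D1:**
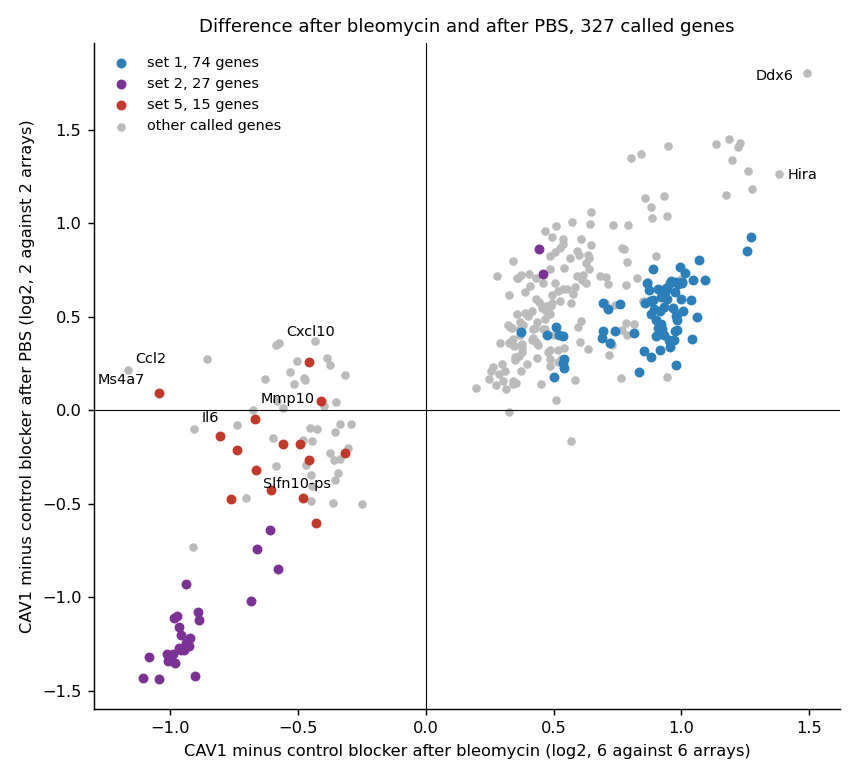
Difference between CAV1 and control blocker in log2 units for the 327 called genes, after bleomycin on the horizontal axis (6 against 6 arrays) and after PBS on the vertical axis (2 against 2 arrays). Each point is a gene, and colours mark 3 sets of genes whose values move together from array to array; nearly all rises lie above 0 on both axes, while Ccl2, Cxcl10, Il6 and Mmp10 lie near or above 0 after PBS.

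Ccl2, the chemokine that draws CCR2-bearing monocytes out of blood, had the largest fall of any called gene. Its signal was 9.80, 10.36 and 11.19 on the lowest, median and highest control arrays, and 8.74, 9.27 and 9.39 under the CAV1 blocker. Every CAV1 blocker array lay below every control array. The difference was -1.17 with a standard error of 0.21 (limma, adjusted p = 0.00546), and it kept its call without any of the 16 arrays. The array carries 10 spots for Ccl2, and all 10 were lower, by -1.05 to -1.18. After PBS the means were 8.18 with the control and 8.40 with the CAV1 blocker, so bleomycin lungs stood 2.18 above PBS lungs with the control blocker and 0.80 with the CAV1 blocker, comparisons that share these arrays.

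Cxcl10, which attracts CXCR3-bearing T cells and is a standard interferon target, and Il6, the cytokine that drives the acute-phase response, were also lower. Cxcl10 was 9.50, 9.79 and 10.10 on the lowest, median and highest control arrays and 9.01, 9.19 and 9.41 under the CAV1 blocker, with no overlap. Its difference was -0.57 with a standard error of 0.12 (limma, adjusted p = 0.0244). Il6 was 7.21, 7.91 and 8.79 on control arrays and 6.68, 7.02 and 7.38 under the CAV1 blocker, so its groups overlapped. Its difference was -0.91 with a standard error of 0.21 (limma, adjusted p = 0.0408), and its second spot differed by -1.08. After PBS the difference was 0.36 for Cxcl10 and -0.10 for Il6. Cxcl10 kept its call in 9 of the 16 fits that leave out an array (adjusted p up to 0.0654), and Il6 in 4 of them (adjusted p up to 0.103). For Il6 these were the fits without either PBS control array, without CAV1 array 4 and without control array 4. Without the 2 control arrays of RNA integrity number 10, a measure of intact RNA that was 9 on every other array, the adjusted p was 0.17 for Cxcl10 and 0.19 for Il6.

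**Figure D2:**
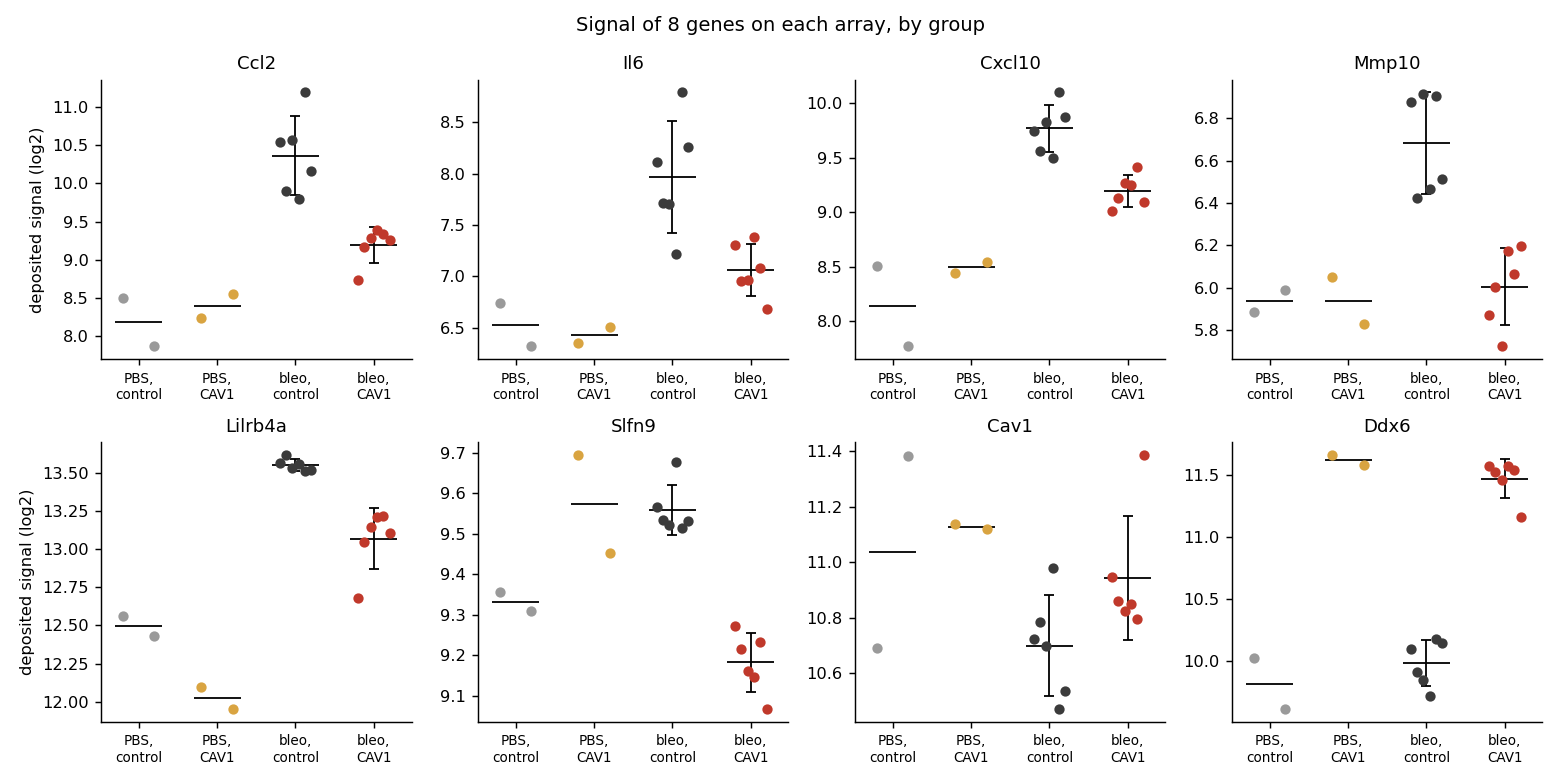
Deposited log2 signal of 8 genes on every array, by injury (PBS or bleomycin, written bleo) and blocker (control or CAV1). Points are arrays, horizontal bars are group means and error bars are the SD of the 6 arrays of a bleomycin group; Ccl2, Cxcl10, Mmp10, Lilrb4a and Slfn9 separate under bleomycin, Il6 and Cav1 overlap, and Ddx6 is higher with the CAV1 blocker after PBS and bleomycin alike.

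Among 36 chemokines tested, Ccl2 and Cxcl10 were the called members, both lower, where 0.413% of all genes were called lower. The list's median was -0.04, and at an unadjusted p under 0.05 its arrays under the CAV1 blocker were lower for 8 members and higher for 2, where 4.59% and 4.47% of all genes were. Cxcl12, the stromal ligand of CXCR4, differed by -0.27 (adjusted p = 0.188). Among 52 cytokines Il6 was the only call, 36 were below 0 and the median was -0.06. Tnfsf8, the ligand of CD30, differed by -0.38 with no overlap between groups (adjusted p = 0.0605), and Il12b by -0.28 (adjusted p = 0.38). Among 22 acute-phase proteins none was called, and Saa3, an acute-phase apolipoprotein made in injured lung, differed by -0.99 (adjusted p = 0.156).

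The 250 bases before the start of Cxcl10, Il6 and Mmp10 are shown. These genes were each called lower, and their promoters are textbook examples of inducible control. A promoter of Ccl2 was not available. The strands run 5′ to 3′ toward the gene, from RefSeq (GRCm38.p6): Cxcl10 at chr5:92348890-92349139 on the minus strand, Il6 at chr5:30012864-30013113 on the plus strand and Mmp10 at chr9:7502092-7502341 on the plus strand. Capitals mark matches, on either strand, to the interferon response element (TTTC and again TTTC, 2 free bases apart), an NF-kB type site (GGG and TTTCC, 2 free bases apart) and the AP-1 site TGANTCA, which reads the same on both strands.
Cxcl10: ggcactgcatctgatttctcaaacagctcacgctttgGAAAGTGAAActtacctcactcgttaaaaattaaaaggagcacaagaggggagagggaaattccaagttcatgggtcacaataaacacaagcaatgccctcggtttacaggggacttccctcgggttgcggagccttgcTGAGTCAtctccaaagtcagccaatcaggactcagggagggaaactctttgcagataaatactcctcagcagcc
Il6: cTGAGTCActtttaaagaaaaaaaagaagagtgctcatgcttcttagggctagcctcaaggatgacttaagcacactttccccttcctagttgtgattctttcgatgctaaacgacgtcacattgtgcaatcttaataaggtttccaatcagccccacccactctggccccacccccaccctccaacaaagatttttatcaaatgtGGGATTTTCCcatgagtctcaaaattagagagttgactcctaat
Mmp10: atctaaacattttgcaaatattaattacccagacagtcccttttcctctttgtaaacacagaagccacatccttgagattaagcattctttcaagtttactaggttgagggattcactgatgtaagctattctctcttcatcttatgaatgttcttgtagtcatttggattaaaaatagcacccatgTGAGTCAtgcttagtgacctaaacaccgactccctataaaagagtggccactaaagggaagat
Over the first listed promoter of each of 15923 tested genes, the interferon element was present in 2.97%, the NF-kB type site in 1.36% and the AP-1 site in 6.12%. Of the 84 falls, 61 had a promoter in the table, and 5 held the interferon element (Cxcl10, Fcgr4, Ifi211, Phf11a and Slfn9), 2 held the NF-kB type site and 6 the AP-1 site. Of 191 rises with a promoter, 3, 3 and 8 held these motifs. A match describes letters in the window and was not tested as a binding site. The NF-kB pattern is a narrow form of that site, and the unmarked letters of Cxcl10 include near matches to it. A window without a match may therefore still hold other forms, which were not counted.

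Most interferon-stimulated genes lay lower under the CAV1 blocker. Mx1, a dynamin-like GTPase that blocks virus replication, was 9.18, 9.29 and 9.63 on the lowest, median and highest control arrays and 8.51, 8.83 and 9.04 under the CAV1 blocker, without overlap. It differed by -0.59 with a standard error of 0.13 (limma, adjusted p = 0.0328). Ifi204, a nuclear DNA sensor of the interferon-inducible p200 family, fell by 0.39 (adjusted p = 0.0385), and its second spot by 0.44. These 2 were called of 47 list members, where 0.413% of all genes were called lower, and 36 members were below 0. At an unadjusted p under 0.05, 15 were lower and none was higher, where 4.59% and 4.47% of all genes were. The list's median was -0.15 against -0.01 over all genes. The list's mean was 10.51 to 10.68 on control arrays and 10.40 to 10.55 under the CAV1 blocker, so the groups overlapped. After PBS the list's median was 0.18, and Mx1 and Ifi204 differed by 0.35 and 0.28, above 0. Mx2 differed by -0.29 with no overlap (adjusted p = 0.0933) and Xaf1 by -0.20 (adjusted p = 0.129). Mx1 kept its call in 7 of the 16 fits without an array (adjusted p up to 0.0896) and Ifi204 in 5 (up to 0.0954).

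Slfn9 and Slfn10-ps, outside that list, were called lower. Slfn9 was 9.52, 9.53 and 9.68 on control arrays and 9.07, 9.19 and 9.27 under the CAV1 blocker, a difference of -0.37 with a standard error of 0.06 (limma, adjusted p = 0.00224) that its second spot showed at -0.36. Slfn10-ps, annotated as a pseudogene of the same interferon-inducible family, whose probe may read near copies, was 8.75, 8.82 and 8.85 on control arrays and 7.96, 8.18 and 8.24 under the CAV1 blocker. Its difference was -0.67 with a standard error of 0.06 (limma, adjusted p = 1.95e-05). Neither gene overlapped between groups, and both kept their call in all 16 fits without an array. Tifa, an adaptor that links sugar sensing to NF-kB, fell by 0.38 (adjusted p = 0.00322) and was as steady. Of 29 nucleic acid sensors, Tlr13, a receptor of bacterial ribosomal RNA, was the called member, lower by -0.35 (adjusted p = 0.0457, and up to 0.125 without an array, kept in 5 of 16 fits). Ifi211, Phf11a and Bcl3, chosen after their values were seen, were called at -0.52, -0.32 and -0.43, and kept their call in 8, 4 and 5 of 16 fits (adjusted p up to 0.0781, 0.102 and 0.132). They are respectively a p200 family member, an interferon-responsive PHD finger gene and an atypical IkB protein. Called genes of interferon-inducible families outside the list also rose: Trim30d by 0.45, Ifitm7 by 0.93 and Sp110 by 0.98. Ifitm7 and Sp110 belong to the set of 74 genes described at the end. The second spot of Ifitm7 differed by -0.10, and the other spots of Sp110 by -0.08 and -0.31.

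Monocyte and macrophage genes made up the cell list with the lowest median. Of 42 genes of monocytes and monocyte-derived macrophages, 3 were called lower and 1 higher, where 0.413% and 1.19% of all genes were. At an unadjusted p under 0.05, 17 were lower and 2 higher, where 4.59% and 4.47% of all genes were. The list's median was -0.27. The mean signal of the list was 11.62, 11.74 and 11.78 on the lowest, median and highest control arrays, and 10.998, 11.51 and 11.62 under the CAV1 blocker. The lowest CAV1 value was array 1, which also had the lowest collagen and mitosis means of its group. After PBS the list was lower under the CAV1 blocker as well, with a median of -0.19. Its mean on PBS arrays was 11.10 and 11.17 with the control and 10.84 and 10.93 with the CAV1 blocker. In whole lung RNA, fewer cells of a type and less RNA per cell cannot be told apart. Without CAV1 array 1 the list's median was -0.20, and the number of called falls over all genes was 67. All 42 genes passed the dim filter. On CAV1 array 1 Ccl2 was the lowest of its group, at 8.74, while the interferon list's mean was the highest, at 10.55. The part of the lower macrophage signal in the falls of Ccl2, Cxcl10, Il6 and the interferon genes was not tested.

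Ms4a7, a tetraspan membrane protein of tissue macrophages, was 12.26, 12.48 and 12.61 on control arrays and 10.27, 11.55 and 12.00 under the CAV1 blocker, with the lowest value on array 1. Its difference was -1.05 with a standard error of 0.22 (limma, adjusted p = 0.0237), the groups did not overlap, and after PBS it was 0.09. It kept its call in 10 of the 16 fits without an array, with an adjusted p up to 0.0619. Fcgr4, the activating IgG receptor of inflammatory monocytes, fell by 0.45 (adjusted p = 0.0237, kept in 8 of 16 fits, up to 0.0637). The other 2 called members had spots that disagreed. Itgam, the CD11b integrin chain, differed by -0.94 at its brightest spot and by -0.01 and -0.03 at its other spots. Ms4a4c differed by 1.00 at its brightest spot and by 0.01 and -0.08 at its others. C1qb, the complement subunit made by macrophages, differed by -0.79 without a call (adjusted p = 0.298).

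Some genes outside the list that myeloid cells are known to express were also called. Lilrb4a, an inhibitory immunoglobulin-like receptor, was 13.51, 13.54 and 13.62 on control arrays and 12.68, 13.12 and 13.22 under the CAV1 blocker, so no arrays overlapped. Its difference was -0.48 with a standard error of 0.08 (limma, adjusted p = 0.00392), its second spot gave -0.44, and after PBS it was -0.47. Lair1, the collagen-binding inhibitory receptor of leukocytes, was 9.68, 9.88 and 10.11 on control arrays and 9.04, 9.33 and 9.46 under the CAV1 blocker, a difference of -0.60 with a standard error of 0.09 (limma, adjusted p = 0.0025). Both kept their call in all 16 fits without an array. Chosen from the called falls after their values were seen, Msr1, the scavenger receptor A, differed by -0.61, Ms4a14 by -0.56, Gpr65, a proton-sensing receptor, by -0.53, Ly86, the partner of the RP105 receptor, by -0.46 and Hpgds, the haematopoietic prostaglandin D synthase, by -0.46. Of these, Ly86 and Hpgds kept their call without any array, Gpr65 in 10 of 16 fits, Ms4a14 in 7 and Msr1 in 5. Without both arrays of RNA integrity number 10 the adjusted p (limma) was 0.114 for Ly86 and 0.0702 for Hpgds.

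Other leukocyte lists moved less. Of 25 resident alveolar macrophage genes none was called, and their median was 0.01, with Ear10 at 0.32 (adjusted p = 0.12) and Marco, a scavenger receptor, at 0.34 (adjusted p = 0.47). Of 30 dendritic cell genes, Cd83, a maturation marker, was called lower by -0.41 (adjusted p = 0.0266, up to 0.0697 without an array), the list's median was -0.12, and Cd86, a costimulatory ligand, differed by -0.34 with no overlap (adjusted p = 0.111). C5ar2, the decoy-type receptor of C5a, was the only call of 27 complement genes, at -0.51 (-0.22 at its second spot, adjusted p = 0.04998, kept in 3 of 16 fits, up to 0.127). Of 32 neutrophil genes none was called, 23 were above 0 and the median was 0.16, with Ngp, a granule protein, at 0.56 (adjusted p = 0.141) and Fpr2, a formyl peptide receptor, at 0.53 (adjusted p = 0.167). The medians of T cell, NK cell and B cell genes were -0.04, -0.03 and 0.07, with no call among 39, 33 and 23 genes.

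**Figure D3:**
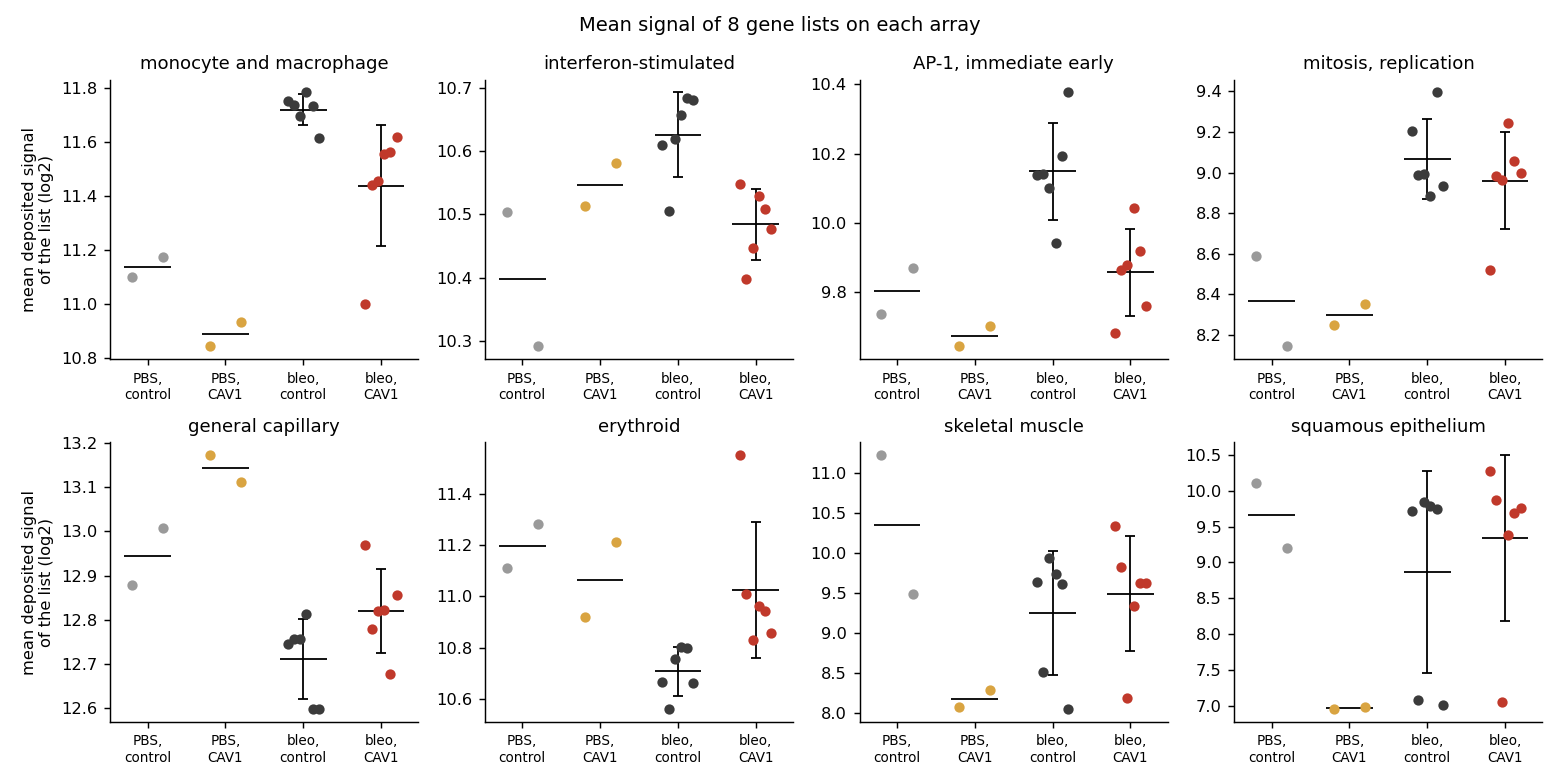
Mean deposited log2 signal of 8 gene lists on every array, by injury (PBS or bleomycin, written bleo) and blocker (control or CAV1). Points are arrays, horizontal bars are group means and error bars are the SD of the 6 arrays of a bleomycin group; the monocyte and macrophage mean runs from 11.62 to 11.78 with the control and from 10.998 to 11.62 with the CAV1 blocker, and skeletal muscle and squamous genes are low on a few arrays of either group.

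Immediate early factors, which are switched on within minutes of stress and of tissue handling, had the lowest median of the function lists, -0.19. Fosb, an AP-1 subunit, was the only call of 31. It was 8.47, 8.58 and 8.96 on control arrays and 7.32, 7.99 and 8.45 under the CAV1 blocker, without overlap, a difference of -0.74 with a standard error of 0.18 (limma, adjusted p = 0.0488). The call was kept in 3 of the 16 fits without an array (up to 0.128). In the list 28 of 31 genes were below 0, and 11 were lower and none higher at an unadjusted p under 0.05. Fos differed by -0.95 (adjusted p = 0.12), Arc by -0.67 (adjusted p = 0.114) and Btg2 by -0.31 (adjusted p = 0.111). The list's mean was 9.94 to 10.38 on control arrays and 9.68 to 10.04 under the CAV1 blocker, so the groups overlapped.

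Matrix and TGF-beta genes, the effectors of scarring, gave few calls. Mmp10, stromelysin-2, a secreted metalloproteinase of injured epithelium and macrophages, was 6.42, 6.70 and 6.92 on control arrays and 5.72, 6.03 and 6.20 under the CAV1 blocker, with no overlap. Its difference was -0.68 with a standard error of 0.11 (limma, adjusted p = 0.00308), and it kept its call without any array. The CAV1 blocker arrays and both PBS means, 5.94, lay near the level of olfactory receptors, whose list mean was 5.99 to 6.01 under the CAV1 blocker after bleomycin, so the size of the fall is limited by background and the PBS means give no comparison. Inhba, which encodes the activin A subunit, a TGF-beta family ligand, was 8.67, 8.91 and 9.49 on control arrays and 8.11, 8.42 and 8.62 under the CAV1 blocker. It fell by 0.59 (adjusted p = 0.0291, kept in 10 of 16 fits, up to 0.0816). P3h2, a collagen prolyl 3-hydroxylase, fell by 0.33 (adjusted p = 0.0209, kept in 11 of 16 fits, up to 0.0597). These were the calls of 37 protease and inhibitor genes, 26 TGF-beta genes and 27 collagen-processing genes, whose medians were -0.05, -0.06 and -0.09. Over all genes 0.413% were called lower.

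No collagen chain was called. Of 41 chains 31 were below 0, 7 were lower and 2 higher at an unadjusted p under 0.05, and the median was -0.09. Col1a2, a chain of type I collagen, was 16.03, 16.21 and 16.40 on control arrays and 15.50, 15.96 and 16.01 under the CAV1 blocker; the groups did not overlap, and the difference was -0.35 (adjusted p = 0.237). Col5a2 differed by -0.70 (adjusted p = 0.112). Among 50 matricellular and provisional matrix genes none was called, 34 were below 0 and the median was -0.09. Ccn1, an AP-1 and YAP responsive matricellular protein, differed by -0.72 (adjusted p = 0.131) and Thbs1, an activator of latent TGF-beta, by -0.55 (adjusted p = 0.316). Adamts4, an aggrecanase, differed by -1.03 (adjusted p = 0.1) and Timp1, a metalloproteinase inhibitor, by -0.75 (adjusted p = 0.285). Of the 26 TGF-beta genes 21 were below 0, with Tgif1 at -0.36 (adjusted p = 0.153) and Tgfbi at -0.24 (adjusted p = 0.119).

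Further called falls, chosen after their values were seen, were Htr2b, Gdf3, Hpse, Rgs16 and Bdkrb1. Htr2b, a serotonin receptor of fibroblasts, was 8.69, 9.16 and 9.36 on control arrays and 7.86, 8.16 and 8.75 under the CAV1 blocker, overlapping at the edge. Its difference was -0.86 with a standard error of 0.15 (limma, adjusted p = 0.0054). Gdf3, a TGF-beta family ligand also made by macrophages, fell by 0.81 at its brightest spot (adjusted p = 0.006) and differed by -0.10 at its second; the adjusted p was 0.0727 with the mean of its spots and 0.0675 without the arrays of RNA integrity number 10. Hpse, the heparanase that cuts heparan sulphate chains, fell by 0.58, Rgs16, a regulator of G-protein signalling, by 0.76, and Bdkrb1, the injury-induced bradykinin receptor, by 0.43. Htr2b and Gdf3 kept their call in all 16 fits without an array, Hpse in 13, Rgs16 in 5 and Bdkrb1 in 3. Without the arrays of RNA integrity number 10 Htr2b was not called either (limma, adjusted p = 0.0626).

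Proliferation and DNA damage genes showed no broad change in calls. Of 59 mitosis and replication genes none was called, 51 were below 0, 1 was lower at an unadjusted p under 0.05, and the median was -0.12. Of 33 p53 targets Ei24, an autophagy protein of the endoplasmic reticulum, was called higher by 0.50 (adjusted p = 0.0229, kept in 11 of 16 fits, up to 0.0581), and Gdf15, a stress cytokine, differed by -0.57 with no overlap (adjusted p = 0.224).

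The largest rise was Ddx6, the RNA helicase of processing bodies that links microRNA silencing to decapping. It was 9.72, 10.01 and 10.18 on the lowest, median and highest control arrays and 11.16, 11.53 and 11.58 under the CAV1 blocker. No arrays came near to overlapping, and the difference was 1.49 with a standard error of 0.10 (limma, adjusted p = 1.43e-06). After PBS it was 1.80. Ddx6 has no other measured spot. Of 70 genes of microRNA processing, silencing and mRNA decay 4 were called, all higher, where 1.19% of all genes were called higher. The others were Dcp2, the decapping enzyme, at 0.73 (adjusted p = 0.00118), Exosc9, an exosome subunit, at 0.47 (adjusted p = 0.0044), and Ago2, the slicing Argonaute, at 0.42 (adjusted p = 0.00833). Exosc9 belongs to the set of 74 genes described at the end. All 4 kept their call in all 16 fits without an array. The second spot of Ago2 differed by 0.23. The list's median was 0.00, with 36 members above and 34 below 0. Rc3h2, a roquin-type protein that binds stem-loops in cytokine mRNAs and triggers their decay, rose by 1.22 (adjusted p = 1.43e-06), with groups far apart at 8.83 to 9.10 and 9.97 to 10.39. Lsm14a, a processing body protein, Etf1, the translation release factor, and Rnmt, the mRNA cap methyltransferase, were chosen after their values were seen and rose by 0.33, 0.52 and 0.39. Rnmt was kept in 6 of 16 fits, and the mean of its spots differed by -0.10.

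Histone H4 genes rose as a group of near-identical copies. H4c4, H4c11, H4c12, H4c14 and H4f16 were the 5 calls among 61 histone genes, at 0.93 to 1.28, while the list's median was -0.01. Over all genes 1.19% were called higher. H4c4 was 11.76 to 12.21 on control arrays and 12.91 to 13.55 under the CAV1 blocker. H4 genes encode the same protein from similar mRNAs, so their probes may read each other's transcripts and the 5 values are not independent. The second spot of H4c12 rose by 1.12. H4c14 had a second, dim spot at -0.05. After PBS the 5 differed by 1.15 to 1.45.

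Several single rises were genes of chromatin and transcription, for which no list beyond histones and Zfp genes was counted. Hira, the chaperone that deposits histone H3.3, was 7.03 to 7.66 on control arrays and 8.60 to 9.07 under the CAV1 blocker and rose by 1.38 (adjusted p = 4.62e-06). Pbrm1, a bromodomain subunit of the PBAF remodeller, rose by 1.17 (adjusted p = 1.43e-06), but its other spots differed by -0.01 and 0.51. Suv39h2, a histone H3 lysine methyltransferase, rose by 1.06 (adjusted p = 0.00224), and its second spot differed by -0.08. Irf2bp2, a transcriptional corepressor, rose by 0.94 (adjusted p = 3.08e-06) at its brightest spot and differed by 0.00 at its second. Klf12, a repressor of the Krüppel-like family, rose by 0.71, and Dhx9, a nuclear RNA helicase, by 0.64. Of 365 Zfp zinc finger genes 5 were called higher and 1 lower, a share close to the background, with Zfp715 at 0.78, Zfp967 at 0.63 and Zfp12 at 0.52.

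Other named rises were genes of signalling, for which no list was counted. Pik3r1, the p85 subunit that holds and stabilises PI3 kinase, rose by 0.87 (adjusted p = 1.95e-05), Prkg1, the kinase that relays nitric oxide and cGMP, by 0.90 (adjusted p = 1.82e-05), and Hipk1, a nuclear kinase, by 0.55, with 0.48 and 0.45 at its other spots. Cyth3, an exchange factor of ARF GTPases, rose by 1.00 and Rasal2, a RAS GTPase activator, by 0.88. Wwp1, a ubiquitin ligase of the NEDD4 family that acts on the TGF-beta pathway, rose by 0.79, and Rnf181, another ubiquitin ligase, by 1.26, with 0.69 at its second spot. All of these had non-overlapping groups. With the mean of its spots, the second of which was dim, Wwp1 was not called (limma, adjusted p = 0.0662). Rictor, the defining subunit of mTORC2, and Lats1 and Mob1b, parts of the Hippo kinase module, were chosen after their values were seen and rose by 0.57, 0.49 and 0.49, with 0.20 at the second spot of Mob1b. Gucy1a2, a subunit of the nitric oxide receptor, and Atp2b1, a plasma membrane calcium pump, chosen in the same way, rose by 0.65 and 0.49, and another spot of each gene moved with them.

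Genes of vessels, stroma and epithelium gave scattered rises. Calcrl, the receptor for adrenomedullin and CGRP on lung capillaries, was 8.47 to 8.56 on control arrays and 8.92 to 9.53 under the CAV1 blocker and rose by 0.68 with a standard error of 0.09 (limma, adjusted p = 0.000839). It was the only call of 31 general capillary genes, of which 25 were above 0 and 6 were higher at an unadjusted p under 0.05, with a median of 0.12. Tmem100, an endothelial membrane protein downstream of BMP receptors, differed by 0.47 (adjusted p = 0.0903) and Hpgd, which breaks down prostaglandins, by 0.26 (adjusted p = 0.154). The list of 16 aerocyte genes had a median of 0.11 and no call, and 28 arterial, venous and lymphatic genes had -0.01 and no call. After PBS the capillary medians were 0.25 and 0.17.

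Itga1 and Itgb6 were the 2 calls among 29 laminin and integrin genes, both higher, where 1.19% of all genes were called higher. Itgb6, the epithelial integrin chain that activates latent TGF-beta and marks transitional alveolar epithelium, rose by 0.64 (adjusted p = 0.0397), with 0.55 at its second spot; it kept its call in 5 of 16 fits, up to 0.0983. Itga1, a collagen receptor chain, rose by 0.59 (adjusted p = 0.000279) at its brightest spot and differed by -0.06 at its second. Cald1, the actin-binding caldesmon of contractile cells, rose by 0.65 (adjusted p = 0.000239), with 0.88 at its second spot. It was the only call of 25 contractile genes, whose median was 0.00. Scn7a, a sodium channel of alveolar fibroblasts and glia, rose by 0.52 (adjusted p = 0.00782) among 30 alveolar fibroblast genes with a median of 0.09 and 21 above 0. Ddr2, a collagen receptor kinase of fibroblasts, was chosen after its values were seen and rose by 0.49 at its brightest spot. Its second spot differed by 0.20, and with the mean of its spots it was not called (adjusted p = 0.171). Mesothelial genes had a median of 0.13 over 20 genes and no call.

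Alveolar epithelium was nearly level. The 24 alveolar type 2 genes had no call and a median of 0.01, and their mean signal of 14.25 to 14.48 on control arrays and 14.27 to 14.54 under the CAV1 blocker stood far above the array median of 6.51 to 6.52 on every array. The 23 type 1 genes had no call and a median of 0.06, where Emp2, a tetraspan membrane protein of type 1 cells, differed by 0.18 with no overlap (adjusted p = 0.0887) and Rtkn2 by 0.45 with no overlap (adjusted p = 0.18). Transitional epithelium had a median of -0.08 over 20 genes, of which 11 were below 0 and Itgb6 was the only call. At an unadjusted p under 0.05, 1 of the 20 was higher and 3 were lower. Aldh1a1, a retinaldehyde dehydrogenase, was the only call of 22 club and secretory genes, at 0.38 (adjusted p = 0.0422, kept in 5 of 16 fits, up to 0.103). Mcidas, the regulator of multiciliation, fell by 0.93 among 37 ciliated genes with a median of -0.01, and it belongs to a set described below for its array profile.

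Blood genes stood higher under the CAV1 blocker. Hbb-bt, an adult beta globin, was 16.53 to 16.83 on control arrays and 17.01 to 17.79 under the CAV1 blocker and rose by 0.57 (adjusted p = 0.0301, kept in 7 of 16 fits, up to 0.0859). Hemgn, a nuclear protein of erythroid precursors, rose by 1.00 (adjusted p = 0.00139) and by 0.68 after PBS; it belongs to the set of 74 genes described at the end, which come from unrelated tissues. Among 22 erythroid genes these were the calls, where 1.19% of all genes were called higher. At an unadjusted p under 0.05, 9 were higher and 1 was lower, where 4.47% and 4.59% of all genes were. The list's median was 0.23. The erythroid mean was 10.56 to 10.80 on control arrays and 10.83 to 11.55 under the CAV1 blocker, the highest on array 1, while PBS arrays ranged from 10.92 to 11.28. Without CAV1 array 1 the median was 0.12. Platelet genes had a median of 0.23 over 21 genes with no call, and their means overlapped at 9.40 to 9.79 and 9.46 to 10.13. Globin probes can read several near-identical copies.

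Skeletal muscle and squamous genes, which do not belong to lung parenchyma, differed between arrays within both groups. Their medians were 0.22 over 47 genes and 0.31 over 37 genes, with no call, and their means were low on control arrays 2 and 6 and CAV1 array 3, as they were on both PBS arrays of the CAV1 blocker. The squamous mean was 7.01 to 9.85 on control arrays and 7.05 to 10.28 under the CAV1 blocker. Without those 3 arrays 168 genes were called, and all but 2 of them were among the 327. With the mean of the squamous genes in the fit 308 were called. Cardiac muscle genes had a median of -0.15 over 26 genes and no call, and adipocyte genes 0.18 over 29 genes and no call.

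**Figure D4:**
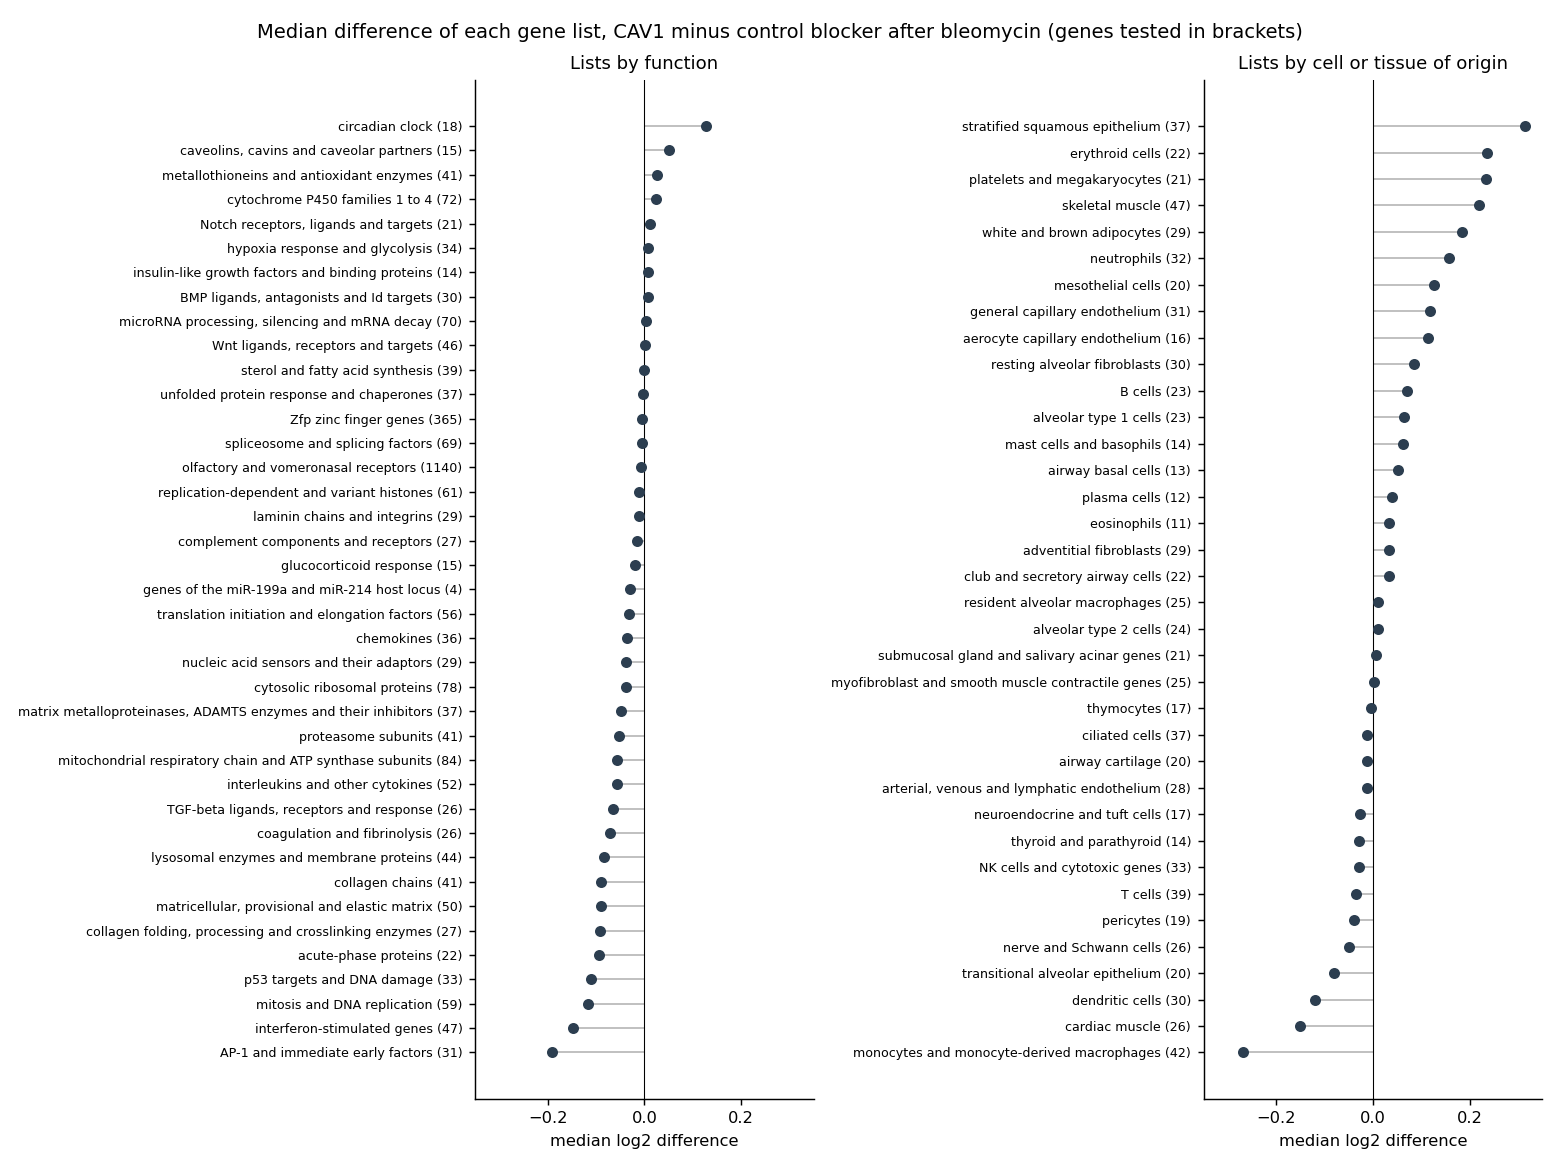
Median log2 difference between CAV1 and control blocker after bleomycin for each of 75 gene lists, by function on the left and by cell or tissue of origin on the right. Each point is a list, with the number of genes tested in brackets; monocytes and macrophages lie lowest at -0.27, AP-1 factors at -0.19 and interferon-stimulated genes at -0.15, while squamous, erythroid and platelet genes lie highest.

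Many genes carry more than 1 spot, and agreement between them differed by comparison. A second measured spot (above the array median on at least 2 arrays) was available for 67 rises and 31 falls. Another spot moved the same way by at least 0.5 of the change for 25 of the 67 rises (37.3%) and 14 of the 31 falls (45.2%). For the genes called between bleomycin and PBS lungs under the control blocker (2.4% of those tested) the same counts were 70 of 98 rises (71.4%) and 15 of 18 falls (83.3%). Falls that another spot shared included Ccl2, Il6, Ifi204, Lilrb4a, Slfn9, Gpr65, Hpse and Msr1. Rises that another spot shared included Ago2, Cald1, H4c12, Hipk1, Itgb6, Rnf181 and Ccpg1, an endoplasmic reticulum autophagy receptor. Genes on which the spots disagreed are named for the probe measured, and splice forms or probe properties were not tested.

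**Figure D5:**
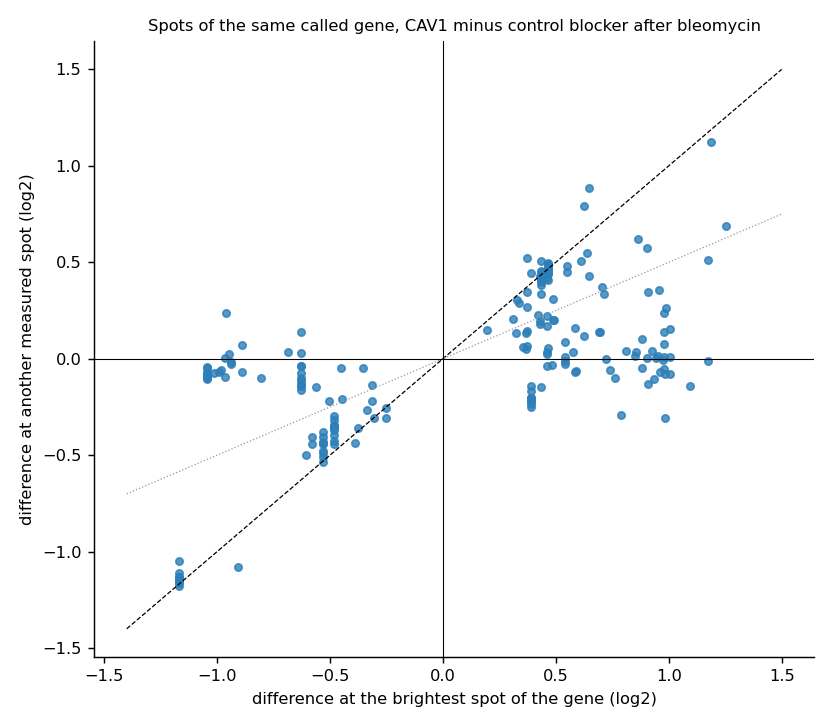
Difference between CAV1 and control blocker after bleomycin at another measured spot of a called gene (vertical axis, log2) against that at its brightest spot (horizontal axis, log2). Each point is a spot, the dashed line marks equal change and the dotted line 0.5 of it; many points lie along 0 on the vertical axis, and 25 of 67 rises and 14 of 31 falls have a spot beyond the dotted line.

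Many called genes moved together from array to array within the groups. Grouping the called genes by the correlation of their deviations from group means, a grouping made after the data were seen and given no test, left sets of 74, 27, 23, 21 and 15 genes. The first set held 74 rises with a median of 0.93, all of them also higher after PBS (median 0.52), and a median correlation of 0.88 between its genes. It held Slc29a3, Rnf181, Ei24, Exosc9, Psme3, Septin3, Kcna4, Suv39h2, Hemgn, Sgsh, Cyp2u1, Mcam, Luc7l2 and Ms4a4c, genes of unrelated tissues and tasks, and another spot shared the change for 3 of the 27 that had one. On PBS arrays the mean of the first set was 11.29 and 12.28 with the control and 12.43 and 12.18 with the CAV1 blocker. The PBS groups thus overlapped for this set, and PBS control array 1 was the low one. The second set held 25 falls and 2 rises, with a median of -0.95 after bleomycin and -1.22 after PBS. Its members were also unrelated by function: Pign, a GPI anchor enzyme, Krt222, Marchf1, a ubiquitin ligase of MHC class II, Lhx6, Fgf23, Tacr2, Slc17a5, Snap25, Idua, Mcidas, Cat and Itgam. Another spot shared the change for 1 of the 12 that had one. The second set holds 13 of the 15 largest falls, and the first 5 of the 15 largest rises. The third set held 22 rises and 1 fall, among them Hira, Klf12, Wwp1, Rictor, Lsm14a, Fzd7 and Gpam. All 23 had the same sign after PBS, and another spot shared the change for 0 of 3 that had one. The fourth held 20 rises, among them Pbrm1, Lats1, Gucy1a2 and Ern1, and 1 fall, Hpse. Of its 21 genes 20 had the same sign after PBS, and another spot shared the change for 4 of 8.

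The fifth set was different in content. Its 15 genes all fell: Ms4a7, Ms4a14, Msr1, Lilrb4a, Ly86, Cd83, Hpgds and Gdf3 of myeloid cells, Fosb, Rgs16 and Slfn10-ps, and 4 others. The median was -0.56 after bleomycin and -0.21 after PBS, and 3 of the 4 genes with another measured spot showed the change there. The set's mean was lowest on CAV1 array 1, at 8.59, against 9.05 to 9.32 on the other CAV1 arrays and 9.54 to 9.82 on control arrays. The part of that array in the shared profile was not tested. Bleomycin lungs stood above PBS lungs by a median of 0.88 for these genes with the control blocker and 0.56 with the CAV1 blocker, comparisons that share arrays with this one.

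Housekeeping and metabolic lists held few calls. Respiratory chain and ATP synthase genes (84), translation factors (56), the hypoxia response (34), Notch genes (21), BMP genes (30), insulin-like growth factor genes (14) and coagulation genes (26) had none, with medians from -0.07 to 0.01. Lysosomal genes had more: of 44, 2 were called higher and 1 lower, where 1.61% of all genes were called. At an unadjusted p under 0.05, 2 were higher and 8 lower, and the median was -0.08. Single calls came from ribosomal proteins (Rplp1, -0.36, adjusted p = 0.0146, of 78), the proteasome (Psme3, 0.81, of 41), splicing factors (Luc7l2, 0.90 at its brightest spot and 0.003 at its second, of 69), Wnt genes (Fzd7, 0.57 at its brightest spot and 0.03 at its second, of 46), lipid synthesis (Gpam, 0.59 and 0.16 likewise, of 39), the unfolded protein response (Ern1, 0.47, of 37) and antioxidant enzymes (Cat, the catalase gene, -0.58, of 41). Ern1 kept its call in 9 of the 16 fits without an array and Cat in 4. With the mean of its spots Cat was not called (limma, adjusted p = 0.0949). Of 1140 olfactory and vomeronasal receptors, which lung hardly expresses, none was called. When genes were ranked by mean signal into 5 equal bins, the dimmest bin held no call and the others 1.28%, 2.65%, 1.72% and 2.38%.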

How the data were processed

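Whole-lung RNA (0.2 µg per array) was hybridised to 16 single-colour Cy3 Agilent arrays, per the labels. The authors deposited a value table on the log2 scale; limma is named in the submitters' processing notes, and its version, the background correction and the slide layout are not given in the sources used here. The deposited columns ran from 5.39 to 18.28 with near-equal quantiles. Of 62976 spots, 31465 had a gene symbol, of which 29036 matched RefSeq by accession. The brightest of a gene's spots on average was kept, and 20363 of 20863 genes exceeded the 25th percentile of an array on at least 2 arrays. The 4 groups entered a single limma fit (limma 3.58.1, R 4.3.3) over the 16 arrays, a step tested on simulated data. Named genes were Cav1, Dnm3os and Dnm3, the 15 largest rises and falls with non-overlapping groups, the 15 further rises and falls of smallest p, and per gene list up to 6 calls or, without calls, up to 4 genes of smallest p; gene models without a name are counted only. The members, the 75 gene lists and the rules were chosen with earlier results of these data known.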

Additional observations from a re-analysis of the deposited data

Results flagged for a closer look

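A value far from the other 5 of its group, by Dixon's 95% critical value, was found in 21 of the gene and group pairs described, and chance alone flags about 1 in 20 groups. The number of pairs examined is not given here, so the 21 were not compared with that share. On CAV1 array 1 the lowest values were Ccl2 at 8.74, Cd86 at 8.89, Col1a2 at 15.50, Hpgds at 6.44, Lilrb4a at 12.68, Ly86 at 12.04 and Ms4a14 at 6.67, and the highest were Hpgd at 13.86 and Xaf1 at 11.78. On CAV1 array 6 Cav1 at 11.39, Ei24 at 10.45 and Klf12 at 8.52 stood high, and Ddx6 at 11.16 and Lats1 at 7.04 stood low. CAV1 array 3 was high for Dnm3 at 8.50 and CAV1 array 5 for Fcgr4 at 10.44. Among control arrays, array 4 was low for Msr1 at 8.23 and high for Slfn9 at 9.68, array 5 was low for Ccpg1 at 10.43 and Rictor at 8.25, and array 6 was high for Prkg1 at 8.46.

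Spots without a gene symbol, which the comparisons above did not use, also differed between the blockers after bleomycin: 383 of 29039 tested (1.32%) were called by limma, 286 higher and 97 lower under the CAV1 blocker.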

How the results depend on the processing

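The count of called genes was 593 (367 higher, 226 lower) with array weights, 573 (453 higher) with every spot on its own, 168 (130 higher, 38 lower) without the 3 arrays low in muscle and squamous transcripts, 205 (157 higher, 48 lower) without the 2 arrays of RNA integrity number 10, and 29 (22 higher, 7 lower) with a log2 change of at least 1. Leaving out each array gave 249 to 394 calls, 197 to 278 of them higher and 49 to 116 lower. With the replicate number as a block 212 genes were called (44 lower); same-numbered arrays did not pair, with correlations of 0.27, -0.34, -0.69, 0.15, 0.35 and -0.52. No dim filter, a filter at the 50th percentile, the mean of spots, centring on medians, a second quantile step, trended robust moderation, the 12 bleomycin arrays alone, the muscle and squamous covariates and the second brightest spot, the last chosen after seeing the data, kept the count between 301 and 367. Cav1 stayed above 0 and uncalled in all fits run.

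At the second brightest spot the sign turned for Fam107a (0.24), H4c14 (-0.051), Idua (0.027), Itga1 (-0.064), Krt222 (0.13), Mcam (-0.056), Pbrm1 (-0.0095), Septin3 (-0.14), Sgsh (-0.067), Suv39h2 (-0.082), Zfp663 (0.034) and Zfp715 (-0.035), and with the mean of spots for Rnmt (-0.10). List medians moved beyond the array spread at the second spot for collagen processing (-0.0013), coagulation (0.011) and translation factors (-0.0075), with the stricter filter for cytochrome P450 genes (0.074), neuroendocrine cells (-0.068), airway cartilage (-0.089) and thyroid (-0.11), without the 3 low arrays for neuroendocrine cells (-0.072), without the 2 arrays of RNA integrity number 10 for BMP genes (-0.035), with array weights for Wnt genes (-0.030), and over single arrays for adventitial fibroblasts (0.018 to 0.073). The causes were not tested. Signal limits the dim genes, none of which was called among the lowest 4073 by signal.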
